A study of Tupaia belangeri with 6 samples.

Results

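SST-type interneurons of the tree shrew hippocampus are described here, as 655 of 37603 sequenced nuclei (1.74%). Nuclei came from the hippocampus of 3 control tree shrews (TSs; Tupaia belangeri, labelled Normal) and of 3 TSs with Alzheimer's-like pathology (ALP TSs, labelled AD), with 1 library of nuclear RNA for each animal. Per the study's methods both groups came from a single cohort of ageing animals of matched age and were picked by their maze performance. These methods describe no genetic change or drug that set the groups apart, and the labels give neither age nor sex. Transcripts were counted as unique molecular identifiers (UMIs) on the 10x Genomics 3′ platform, where amplified copies of a captured RNA count once.

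Somatostatin (SST) interneurons are GABA-releasing neurons that inhibit the dendrites of their targets. In the hippocampus they include cells whose axons reach the layer of entorhinal input and cells with long projections that also carry neuropeptide Y (NPY) and nitric oxide synthase. Neuropeptides such as somatostatin are made as precursors, sorted into dense-core vesicles by granins, and cut by proprotein convertases before release.

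Members were chosen by their own UMIs. A nucleus had at least 2 UMIs of NXPH1, which encodes an adhesion ligand of neurexins, and at least 3 UMIs of SST, RERG and GRIN3A together, with at least 1 of SST or RERG. It held at most 1 UMI of the basket cell genes TLL1 and BTBD11 together, at most 1 of VIP, CALB2 and LAMP5 together, and 0 of MOG, PDGFRA, AQP4, PTPRC and NEUROD6, which mark glia, leukocytes and excitatory neurons. Control 1, 2 and 3 gave 126, 131 and 103 such nuclei, and ALP 1, 2 and 3 gave 128, 124 and 43. ALP 3 thus rested on the fewest nuclei. Summed over members, the controls had 895332, 1003499 and 751027 UMIs, and the ALP TSs had 733852, 774055 and 270909. The median nucleus held 6881, 7114 and 6935 UMIs in control and 5049, 5971.5 and 6321 UMIs in ALP TSs, so that members from ALP TSs were shallower. No barcode was shared between members of different libraries. Of the members, 381 (58.2%) had more than 2500 genes, the upper limit in the study's methods, and were kept.

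The nuclei carried the genes of interneurons from the medial ganglionic eminence, the embryonic source of SST and parvalbumin cells. LHX6, the transcription factor of this lineage, stood at 33.5 ± 7.2 CPM (UMIs per 1000000 UMIs; mean ± SD over 6 libraries) and was close to its level in basket-type nuclei (at least 3 UMIs of TLL1 and BTBD11), at 30.8 ± 9.9 CPM. In VIP/CALB2-type nuclei it was at 0 UMIs in 230 nuclei. SOX6 and SATB1, which act downstream of LHX6, were at 289 ± 96.1 and 277 ± 46.3 CPM in SST-type nuclei. In basket-type nuclei the same genes were at 212 ± 59.1 and 108 ± 32.2 CPM, and in VIP/CALB2-type nuclei at 12.5 ± 12.1 and 9.4 ± 11.6 CPM. The reverse held for ADARB2, a gene of interneurons from the caudal eminence, with 278 ± 235 CPM in SST-type against 12053 ± 2747 CPM in VIP/CALB2-type nuclei. PVALB, the parvalbumin gene, had 7 UMIs in all members together and 35.8 ± 22 CPM in basket-type nuclei. LHX6, SOX6 and SATB1, which the rule did not use, thus matched the lineage that SST and basket cells share, and SST itself was part of the rule. GAD1 had 23 UMIs in the members and GAD2 and SLC32A1 had 0, but GAD2 was also at 0 in the other interneurons, so that these genes of GABA synthesis and transport were hardly counted with this annotation. Instead, DLX1, DLX2, DLX5, DLX6 and the antisense-named DLX6A-AS-1 of forebrain interneurons were used, and 413 of 655 members (63.1%) had at least 2 UMIs of them. DLX6A-AS-1 was the most abundant of the 5, at 271 ± 55.0 CPM in SST-type nuclei and 502 ± 76.0 CPM in the other interneurons. The other interneurons were chosen by UMIs of these 5 features and the members were not, so that a higher level there was built in.

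**Figure D1:**
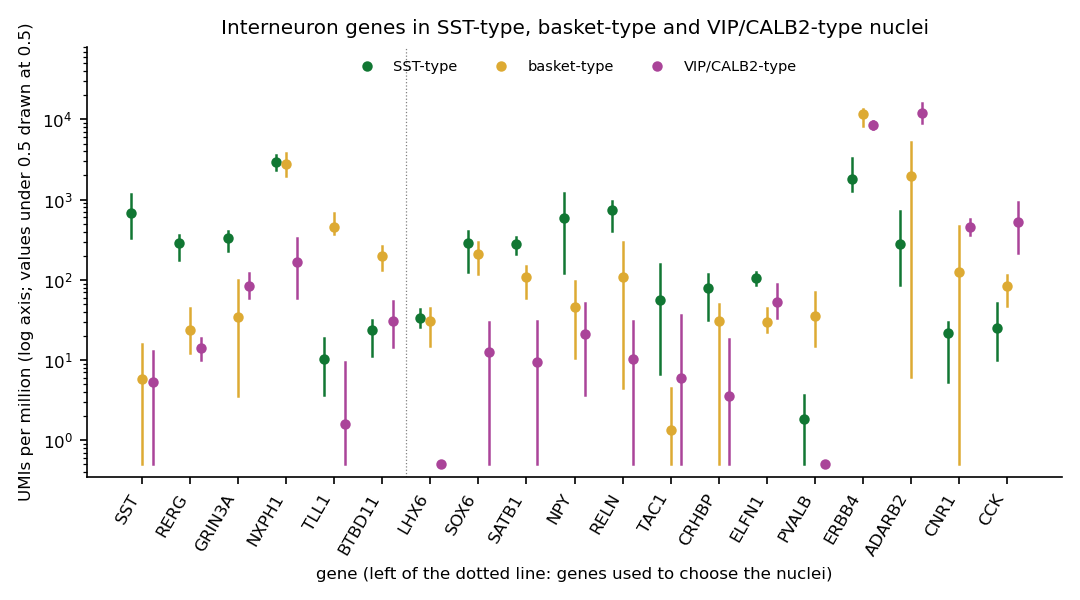
Mean CPM (points, log axis) with the lowest and highest of the 6 libraries (lines) for genes of interneuron classes in SST-type, basket-type and VIP/CALB2-type nuclei. LHX6 stands at 33.5 CPM in SST-type and 30.8 CPM in basket-type nuclei and is at 0 in VIP/CALB2-type nuclei, where ADARB2 reaches 12053 CPM.

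Peptide and synaptic genes that are known for SST cells were prominent. NPY was at 592 ± 448 CPM in SST-type, 45.8 ± 37.5 CPM in basket-type and 21 ± 19.4 CPM in VIP/CALB2-type nuclei. RELN, a secreted matrix protein, was at 737 ± 179 CPM against 108 ± 113 and 10.4 ± 11.5 CPM. TAC1, the precursor of substance P, was at 55.5 ± 54.9 CPM against 1.3 ± 2.1 and 6 ± 14.8 CPM. CRHBP, which binds corticotropin-releasing hormone, was at 78.7 ± 35.8, 30.7 ± 17.2 and 3.6 ± 7.3 CPM in the same order. ELFN1, a postsynaptic protein that sets the release properties of inputs onto SST cells, was at 106 ± 13.6 CPM against 30.1 ± 7.7 and 52.5 ± 21.2 CPM. SST-type nuclei held 47.3% of all SST UMIs and 40.0% of all NPY UMIs of the 6 libraries, so that much of both transcripts was counted in nuclei outside the rule.

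Among 2580 gene symbols with at least 50 CPM in SST-type nuclei, 544 were higher than in the other interneurons (nuclei with at least 2 DLX UMIs outside the rule) in each of the 6 libraries and 243 were lower in each. These levels are a description, since the rule chose the nuclei by related genes. The highest lowest-of-6 ratio belonged to NIBAN1, at 78.3 CPM against 13.1 CPM in the other interneurons, with ratios of 5.10 to 8.08 across libraries. The extracellular protein gene SPON1 followed with ratios of 4.51 to 21.1, the mannosidase gene MAN1A1 with 3.5 to 5.82, the cation channel gene TRPC6 with 3.20 to 6.74 and UTRN, a relative of dystrophin, with 3.12 to 5.19. The ligand gene ALKAL2 (ratios of 2.99 to 4.74), the cadherin gene CDH9 (2.51 to 7.25), the proteoglycan gene GPC6 (2.35 to 3.95) and the cofactor gene ZFPM2 (2.71 to 4.59) were also among the 20 leading genes, besides NPY, SATB1 and SOX6. The 5 most depleted genes by their highest ratio were CNR1, the cannabinoid receptor of CCK cells, at 21.7 against 387 CPM, PBX3, a homeodomain factor, at 16.9 against 226 CPM, ADARB2 at 278 against 6921 CPM, SORCS3, a sorting receptor, at 30.1 against 404 CPM, and CCK itself at 25.2 against 220 CPM.

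Nuclei on either side of the limit on the sum of SST, RERG and GRIN3A were close in LHX6. The 108 nuclei with a sum of 3 (inside) had 35.7 CPM of LHX6 and 310 CPM of ADARB2, and 127 nuclei that met the other conditions with a sum of 2 (outside) had 30.4 and 864 CPM. At the limit on NXPH1, 21 members with 2 or 3 NXPH1 UMIs had 2053 CPM of ADARB2 and 18.4 CPM of LHX6. They also had 571 CPM of SOX6 and 3296 CPM of NPY, and 1 of them, from ALP 1, held 272 NPY UMIs. Outside this limit were 8 nuclei with 1 NXPH1 UMI and 63 with 0. SOX6 stood at 114 and 2.17 CPM in these sets, and NPY at 38.0 and 43.4 CPM. Their ADARB2 was at 2848 and 7305 CPM, and neither set had an LHX6 UMI. A small set of members therefore carried a gene of another interneuron class: 20 nuclei (3.05%) had at least 10 ADARB2 UMIs, and they held 85.5% of the members' ADARB2 UMIs. They numbered 3, 6 and 2 in control and 2, 3 and 4 in ALP libraries.

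The makeup of the members varied between nuclei. SST itself was counted in 558 of 655 members (85.2%), RELN in 472 (72.1%), NPY in 299 (45.6%), CRHBP in 202 (30.8%), TAC1 in 103 (15.7%), CALB1 in 89 (13.6%) and CRH in 76 (11.6%). In VIP/CALB2-type nuclei, 5 of 230 (2.17%) had an SST UMI and 14 (6.09%) an NPY UMI. These nuclei were chosen for few UMIs of SST and RERG, so that their SST share was set by the choice. CRH was counted in 31 of these 230 nuclei (13.5%), about as often as in SST-type nuclei. The genes with the widest spread between members within libraries, as a negative binomial dispersion averaged over libraries, were ADARB2 at 25.4, ARPP21 at 13.6, NPY at 12.7, PTPRK at 11.3, NTNG1 at 9.09 and TCERG1L at 8.88. The median over 2580 symbols was 0.146. ARPP21 encodes a phosphoprotein of forebrain neurons, and 18 members with at least 10 of its UMIs held 64.8% of the total. Those 18 nuclei had a median of 13578 UMIs against 6366 over all members, and 8 of them were marked as doublets.

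A few nuclei were very rich in peptide transcripts. A single nucleus of control 1 held 598 NPY UMIs, 5.5% of its UMIs, together with 114 SST and 12 CHODL UMIs. A nucleus of ALP 1 held 272 NPY (7.34%), 97 SST and 2 CHODL UMIs. CHODL marks the long-projecting SST cells in other mammals. The 33 CHODL UMIs of the members lay in 10 nuclei. In 5 of these there were 2 to 12 CHODL UMIs, 3 from control 1, 1 from ALP 1 and 1 from ALP 2, and all 5 had NPY and TACR1 UMIs. All 5 also had SST UMIs, without which they would not have met the rule. The nucleus of control 1 decided the NPY level of its library, with 598 of 826 NPY UMIs.

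The share of SST-type nuclei did not separate the groups. It was 1.43%, 4.35% and 1.29% of nuclei in the control libraries (95% exact binomial intervals 1.2 to 1.71%, 3.65 to 5.14% and 1.06 to 1.57%, for counting error only). In the ALP libraries it was 2.51%, 1.73% and 0.768% (2.10 to 2.98%, 1.44 to 2.06% and 0.557 to 1.03%). Control 2 was highest and ALP 3 lowest, so that the groups overlapped, while ALP 1 and ALP 2 lay above control 1 and control 3. Control 2 also had the fewest barcodes, 3011 against 5091 to 8785, and a median of 5181 UMIs per barcode against 1747 to 2492 in the other libraries. The mean was 2.36 ± 1.73% in control and 1.67 ± 0.875% in ALP TSs (exact two-sided permutation test over libraries, p = 0.7, n = 3 and 3; the smallest p this design allows is 0.1). Among nuclei with at least 2 DLX UMIs the share was 14.6 ± 4.97% in control and 18.2 ± 2.85% in ALP TSs (exact permutation test, p = 0.4), so that the sign of the difference depended on the denominator. Shares of nuclei also follow which nuclei were recovered, and this was not tested.

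Between ALP and control TSs, UMIs were summed per library over the members and 8426 features were tested (edgeR quasi-likelihood test, Benjamini-Hochberg adjustment over all features; a call needed an adjusted p under 0.05 and a log2 fold change over 0.25 in size). No feature was called (0%), and the smallest adjusted p was 0.0509. At an unadjusted p under 0.05, 570 features (6.76%) were higher and 699 (8.3%) lower in ALP TSs. The 3 ALP libraries lay above the 3 control libraries for 833 features (9.89%) and below them for 964 (11.4%). DESeq2 on the same counts called 97. Of the 6179 features with a plain gene symbol, which is what the gene lists hold, 432 were higher and 225 lower at an unadjusted p under 0.05, while antisense-named features, given below, made up 348 of the 699 that were lower. Values of CPM below are scaled with the normalization factors of the test. SST in the other interneurons and the sums of markers of other cells are exceptions and are not scaled.

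The 8 gene symbols outside the rule with the smallest p among those with all ALP libraries above all control libraries were SCG2 and TAC1, which are given with the peptides below, ATP6V0B, NCAPD2, TUBB2A, TMEM176A, ARRDC1 and GSTP1. None of them passed the adjustment. ATP6V0B, a subunit of the proton pump that acidifies vesicles and lysosomes, was at 41.0, 37.4 and 31.3 CPM in control and 140, 101 and 130 CPM in ALP TSs. Its log2 fold change was 1.74 (SE 0.229, adjusted p = 0.0509). TUBB2A, a beta-tubulin, was at 60.4, 49.8 and 50.4 CPM against 136, 113 and 134 CPM, with a log2 fold change of 1.24 (SE 0.201, adjusted p = 0.0509). GSTP1, a glutathione transferase, differed by 1.52 (SE 0.267, adjusted p = 0.0539). The other 3 differed by 1.11 (NCAPD2, a condensin subunit), 1.5 (TMEM176A) and 1.21 (ARRDC1). In the other interneurons, tested alone, NCAPD2, TUBB2A, ATP6V0B, ARRDC1 and GSTP1 were higher by 1.15, 1.07, 1.39, 1.24 and 1.69, each with an adjusted p under 0.05, so that all 5 also rose in the other interneurons.

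Among the 8 symbols lower in ALP TSs by the same rule, MRPL22, a protein of the mitochondrial ribosome, had the smallest p. It was at 27.4, 31.1 and 47.7 CPM in control and 7.47, 4.05 and 4.33 CPM in ALP TSs, where the 3 libraries held 9 UMIs against 89 in control (log2 fold change −2.64, SE 0.460, adjusted p = 0.0509). SKA2, a kinetochore protein, was lower by 1.27 (SE 0.244), SCN9A, a sodium channel, by 1.15 (SE 0.261) and SLC25A26, a mitochondrial carrier, by 0.83 (SE 0.196), with adjusted p of 0.086, 0.0946 and 0.0991. The features named IL6, LRRD1, B3GNT5 and MX2 completed the 8 and were lower by 1.08, 3.23, 2.27 and 1.42. LRRD1 and B3GNT5 rested on 4 and 8 UMIs in the ALP libraries. In the other interneurons MRPL22, SKA2 and B3GNT5 fell by 1.5, 1.27 and 2.39 on the log2 scale (adjusted p of 0.0469, 0.0469 and 0.0482), and in oligodendrocyte nuclei MRPL22, SKA2, SCN9A and LRRD1 fell by 1.75, 1.36, 2.38 and 1.82 (adjusted p of 0.0383, 0.0383, 0.0463 and 0.0497).

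Of the lists with more than 1 gene tested, the neuropeptides had the highest median difference in ALP TSs. Of 14 genes on this list, which also holds the binding protein CRHBP, 12 were in the files and 6 had enough UMIs to be tested. Without SST, which the rule used, 4 of the remaining 5 were higher at an unadjusted p under 0.05 and 0 lower, against 6.76% and 8.3% of all features, and their median log2 fold change was 1.25 against −0.01 over all features. TAC1 and CRH had 5 and 0 UMIs in control 3, and CCK had 9 in control 1, below the minimum count of 10. In each ALP library these genes had at least 10 UMIs, so that the ALP libraries carried them through the filter. The count and the median of this list are therefore a description. The genes not tested were PNOC, PENK, PDYN, TAC3, VIP and GAL. TAC1 had 27.4, 17.6 and 6.81 CPM in control, against 77.6, 163 and 65.0 CPM in ALP TSs. All ALP libraries lay above all control libraries (log2 fold change 2.58, SE 0.445, adjusted p = 0.0509). CRH, corticotropin-releasing hormone, was at 25.1, 22.8 and 0 CPM against 88.1, 49.9 and 108 CPM (log2 fold change 2.22, SE 0.604, adjusted p = 0.129). CRHBP was at 93.4, 33.2 and 36.8 CPM against 128, 104 and 113 CPM (1.07, SE 0.353, adjusted p = 0.184). Control 1 alone came near the ALP libraries, and without it CRHBP differed by 1.72 (adjusted p = 0.0199). Without control 2 or control 3 CRHBP differed by 0.81 and 0.87 (adjusted p of 0.269 and 0.389). CCK, at 15.3 ± 4.54 against 39.9 ± 20.2 CPM, differed by 1.25 (SE 0.443, adjusted p = 0.214). Its level in ALP 2, at 20.2 CPM, was close to that in control 3, at 19.1 CPM. In the other interneurons, where it was more abundant, CCK rose by 1.69 (adjusted p = 0.0469), and NPY differed by 1.79 (adjusted p = 0.105).

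NPY varied more between libraries of a group than between groups. It was at 941, 128 and 152 CPM in control and 1321, 368 and 936 CPM in ALP TSs, with a log2 fold change of 1.10 (SE 0.667, adjusted p = 0.482). Control 1 lay among the ALP libraries through the single nucleus with 598 NPY UMIs. Without control 1 NPY differed by 2.64 (adjusted p = 0.028), and without control 2, control 3 or ALP 1 by 0.68, 0.70 and 0.66. When the nuclei with at least 100 NPY UMIs were left out, an alternative added after the data were seen, NPY differed by 2.02 (SE 0.360, adjusted p = 0.0589). SCG2 then passed the threshold with an adjusted p of 0.0326.

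SST was chosen on in these members, so its level among them is a description: 516, 349 and 370 CPM in control and 1282, 842 and 1096 CPM in ALP TSs. SST was known from earlier results of these data to be higher in ALP interneurons. To test it, nuclei were chosen again with SST left out of the rule. They needed at least 3 UMIs of RERG and GRIN3A together, with at least 1 of RERG. This gave 86, 85 and 38 control and 60, 76 and 18 ALP nuclei, 363 in all, each of them also a member. Here SST was at 329, 294 and 226 CPM in control and 1084, 964 and 1235 CPM in ALP TSs. The groups lay far apart, with 283 ± 52.8 CPM against 1094 ± 136 CPM. SST rose in ALP TSs with a log2 fold change of 1.93 (SE 0.205; edgeR, adjusted p = 0.00317 over 5693 features). It was 1 of 2 calls (0.0351% of features). The genes that chose these nuclei also lay higher in ALP TSs, with GRIN3A at 414 ± 103 against 671 ± 127 CPM and RERG at 451 ± 104 against 576 ± 32.7 CPM, and with all ALP libraries above all control libraries for both. Without ALP 1 its log2 fold change was 1.94 with an adjusted p of 0.0693. At an unadjusted p under 0.05, 320 features (5.62%) were higher and 379 (6.66%) lower in these nuclei.

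The second call in the nuclei chosen without SST was SCG2, secretogranin II, a granin of dense-core vesicles. It was at 84.4, 89.9 and 45.1 CPM in control and 236, 299 and 276 CPM in ALP TSs and rose by 1.83 on the log2 scale (SE 0.253, adjusted p = 0.0249). Its call was lost without any 1 of the 3 ALP libraries, with an adjusted p of 0.17, 0.152 and 0.0802 without ALP 1, 2 and 3. NPY was at 159, 88.3 and 79.8 CPM against 630, 295 and 238 CPM in the same nuclei, with a log2 fold change of 1.84 and an adjusted p of 0.0922. TAC1 had 27.0, 21.2 and 6.94 CPM against 132, 208 and 19 CPM (2.75, adjusted p = 0.0922), where ALP 3 lay among the control libraries. CRH differed by 2.55 (adjusted p = 0.0924).

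**Figure D2:**
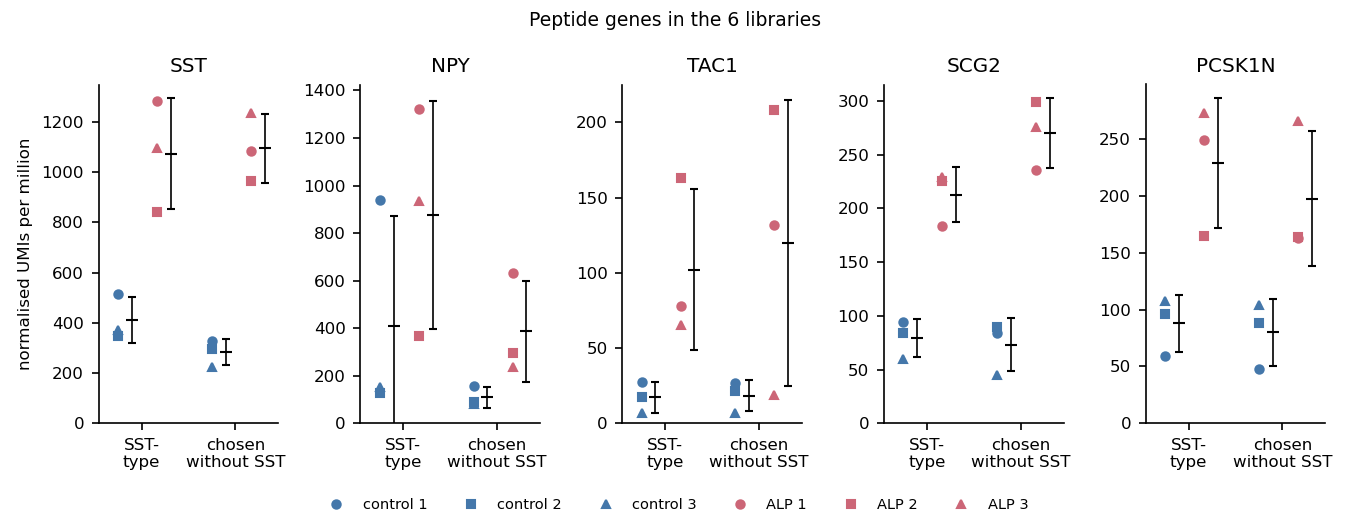
Normalised CPM (linear axes from 0) of 5 peptide genes in each library, in SST-type nuclei and in the nuclei chosen without SST, with mean and SD per group (the lower end for NPY in control SST-type nuclei is below 0 and not drawn). SST in the nuclei chosen without SST lies at 226 to 329 CPM in control and at 964 to 1235 CPM in ALP TSs.

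The difference was also seen in how many nuclei held a transcript at equal depth. Nuclei with at least 4000 UMIs were reduced to 4000 UMIs, and the expected share with at least 1 UMI was computed. In control 110, 118 and 94 members were deep enough, and in ALP TSs 91, 103 and 34. SCG2 was counted in 21.7%, 23.6% and 18.3% of control and in 31.5%, 43.5% and 45.7% of ALP members (without thinning 30.2%, 34.4% and 29.1% against 43.0%, 58.1% and 55.8%). Its groups did not overlap (exact permutation test, p = 0.1, the smallest possible). In oligodendrocyte nuclei (at least 2 MOG UMIs) at the same depth SCG2 was counted in 8.17%, 13.1% and 8.87% of control and in 14.4%, 18.7% and 16.6% of ALP nuclei, so that it was lower there and the groups also did not overlap. TAC1 was counted in 8.81%, 5.46% and 2.80% against 16.3%, 25.7% and 9.36%, and CRH in 8.73%, 5.91% and 0% against 9.98%, 15% and 23.8% (exact permutation test, p = 0.1 for both). Without thinning both genes overlapped between groups, with 9.11 ± 5.20% against 21.4 ± 7.15% for TAC1 and 6.79 ± 6.75% against 18.9 ± 6.23% for CRH (exact permutation test, p = 0.2 for both). NPY was counted in 35.8%, 24.8% and 31.3% against 61.8%, 35.6% and 56.8%, where ALP 2 lay among the control libraries (p = 0.2, exact permutation test; without thinning 40.5 ± 5.66% against 54.2 ± 12.1%). RELN, at 63.0 ± 16.7% and 73.0 ± 1.81%, and CALB1, at 7.99 ± 4.03% and 8.27 ± 5.73%, overlapped between groups. In the nuclei chosen without SST, SST was counted in 55.6%, 53.3% and 46.5% of control and in 82.4%, 74.1% and 78.2% of ALP nuclei at this depth (without thinning 66.5 ± 2.59% against 83.5 ± 4.70%; exact permutation test, p = 0.1 for both). SST was counted in 3.88%, 5.39% and 4.20% of control and 9.15%, 4.88% and 5.84% of ALP oligodendrocyte nuclei at the same depth, which should lack it.

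**Figure D3:**
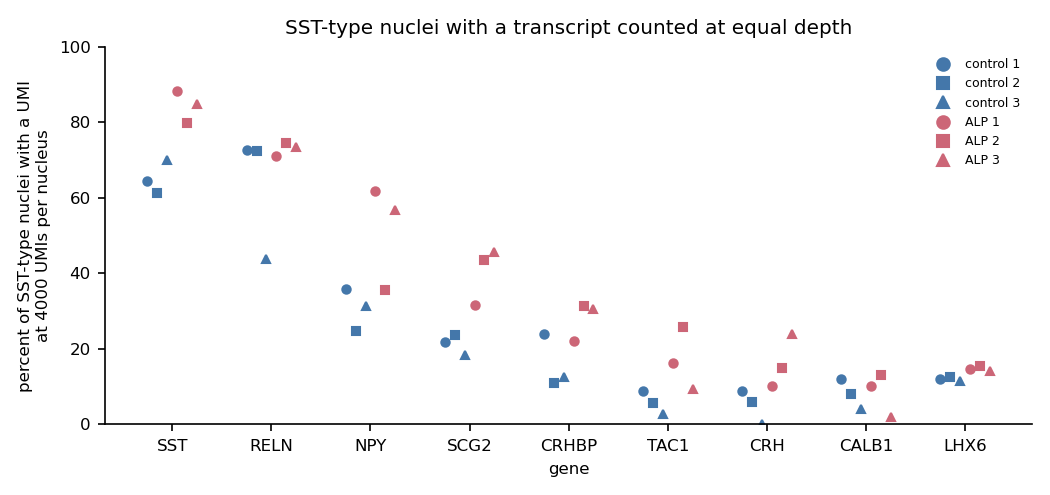
Percent of SST-type nuclei with at least 1 UMI of each of 9 genes after thinning to 4000 UMIs per nucleus, by library. The ALP points lie above the control points for SCG2, TAC1, CRH and LHX6, and also for SST, on which these nuclei were chosen, and the groups overlap for RELN, NPY, CRHBP and CALB1.

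Among the genes that process peptides and build dense-core vesicles, 11 of 13 were tested, of which 4 were higher and 1 lower at an unadjusted p under 0.05, where 6.76% and 8.3% of all features were. Their median log2 fold change was 0.38. SCG2 was at 94.6, 84.0 and 59.9 CPM in control and 184, 225 and 230 CPM in ALP SST-type nuclei (1.40, SE 0.207, adjusted p = 0.0509). PCSK1N, the inhibitor of the convertase PCSK1, was at 59.3, 96.5 and 108 CPM against 249, 165 and 273 CPM (1.36, SE 0.259, adjusted p = 0.0848). The granin SCG3 and the convertase chaperone SCG5 differed by 0.69 and 0.60 (adjusted p of 0.197 and 0.125). The convertase PCSK2 differed in the other direction, with 332, 544 and 546 CPM in control and 214, 306 and 169 CPM in ALP TSs (−1.01, SE 0.25, adjusted p = 0.111). CPE and PAM, which trim and amidate peptides, had values of 0.33 and −0.10 and did not pass at an unadjusted p under 0.05.

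SCG2 was not particular to SST-type nuclei. In the other interneurons it was higher in ALP TSs by 1.22 (adjusted p = 0.0482), and PCSK1N by 1.38 (adjusted p = 0.0449). The test of the difference between SST-type nuclei and other interneurons in the ALP effect covered 11036 features and made 1 call (0.00906%), the gene TTR. For SCG2 the difference was 0.21 (SE 0.209, adjusted p = 0.989) and for PCSK1N 0.02 (SE 0.189, adjusted p = 1.00). For TAC1 it was 1.36 (SE 0.791, adjusted p = 0.989) and for NPY −0.06 (SE 0.448, adjusted p = 1.00). SST was among the features fitted, with a difference of 0.88, but one class was chosen for SST and the other against it, so that this value is a description and no test. In the other interneurons SST was at 32.6, 29.9 and 38.3 CPM in control and 69.4, 29.2 and 35.4 CPM in ALP TSs. These CPM are not scaled with the normalization factors. In oligodendrocyte nuclei SST differed by 0.92 (adjusted p = 0.223). A single oligodendrocyte nucleus of ALP 3 held 71 of the 99 SST UMIs of that class in its library.

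The receptors for somatostatin and NPY were sparse in the members. Of 8 receptor genes 1 was tested, NPY5R, at 18.2, 4.15 and 2.72 CPM in control and 13.4, 29.7 and 134 CPM in ALP TSs (2.49, SE 0.858, adjusted p = 0.198). Its groups overlapped and ALP 3 alone was high. SSTR1 had 7 and SSTR2 13 UMIs in all members together.

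Of 13 interneuron transcription factors tested 0 passed at an unadjusted p under 0.05, a share near that of all features (6.76% higher and 8.3% lower), and their median log2 fold change was 0.12. In 3 of the 13 (LHX6, DLX5 and NPAS1) all ALP libraries lay above all control libraries, against 9.89% of all features. LHX6 was at 26.2, 33.2 and 30.0 CPM in control and 44.8, 45.9 and 34.7 CPM in ALP TSs (0.52, SE 0.266, adjusted p = 0.378). MAF and SATB1 had values of 0.02 and 0.10. Of 8 subtype genes of SST cells 0 passed, with RELN at 0.40 (SE 0.237) and CALB1 at 0.58 (SE 0.541). RERG, GRIN3A and NXPH1, on which members were chosen, had values of 0.12, 0.36 and 0.04. In the nuclei chosen without SST, SATB1 and SOX6 differed by 0.39 and 0.47, with adjusted p of 0.441 and 0.545.

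Counts among receptors and channels are to be read against 6.76% higher and 8.3% lower of all features, and against 432 higher and 225 lower of 6179 gene symbols. Of the NMDA and AMPA receptor subunits outside the rule, 1 of 6 was higher at an unadjusted p under 0.05, GRIN2A, at 773, 683 and 600 CPM in control and 788, 989 and 979 CPM in ALP TSs (0.42, SE 0.169, adjusted p = 0.27). Control 1 lay close to ALP 1. Of 9 kainate and metabotropic receptors 1 was lower at an unadjusted p under 0.05 (GRIK5, −0.72, SE 0.309, adjusted p = 0.298). None of 12 GABA receptor subunits passed at this level, and of 17 sodium, potassium and HCN channels 1 did (KCNQ5, 0.67, SE 0.307, adjusted p = 0.332). Of 17 synaptic adhesion genes outside the rule 2 were lower at the same level, ERBB4, the neuregulin receptor (−0.59, SE 0.261), and UNC5D, a netrin receptor (−0.56, SE 0.254). ERBB4 was at 3400 CPM in control 1 and at 1398 to 1876 CPM in the other 5 libraries. Of 3 tested genes of GABA handling, the transporter SLC6A11 was lower, by 0.66 (SE 0.242, adjusted p = 0.229).

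Genes of amyloid and tau processing gave 1 of 11 at an unadjusted p under 0.05, the tau kinase CDK5 (0.64, SE 0.273, adjusted p = 0.298). APP was at 632, 614 and 536 CPM in control and 588, 721 and 663 CPM in ALP TSs, and MAPT, the tau gene, had a log2 fold change of 0.03 (SE 0.190). None of 5 amyloid-degrading peptidases, with MME (neprilysin) at 0.00 (SE 0.480), passed at this level. Of 15 immediate-early genes 1 had enough UMIs to be tested, HOMER1, at −0.22 (SE 0.174). Of 4 heat shock genes, HSPA5, a chaperone of the endoplasmic reticulum, was higher by 1.05 (SE 0.346, adjusted p = 0.186). HSPA4, HSPH1 and HSPD1 had values of −0.54, −0.39 and 0.10, and the median of the list was −0.15. Of 14 genes of vesicle release 3 were higher and 2 lower at an unadjusted p under 0.05, against 6.76% and 8.3% of all features. VAMP2 was higher by 0.97 (SE 0.285), SNAP25 by 0.44 (SE 0.167) and UNC13C by 0.93 (SE 0.285), while CPLX1 had a log2 fold change of −0.57 (SE 0.239) and SYN1 one of −0.61 (SE 0.274). None of these passed the adjustment. In oligodendrocyte nuclei VAMP2 rose by 1.09 (adjusted p = 0.0391).

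Other measured properties of the libraries are given here for the same nuclei. Features named as antisense transcripts took 6.85%, 6.42% and 10.2% of the members' UMIs in control and 5.11%, 4.94% and 4.24% in ALP TSs, and of 978 tested 348 were lower and 19 higher at an unadjusted p under 0.05. A single long intergenic feature, LINC-FRMD8-1, took 16.6%, 21.8% and 13.9% against 24.6%, 20.5% and 30.2%, where control 2 lay above ALP 2 and the groups overlapped. The log2 fold change also followed gene span: 300 gene symbols whose RefSeq gene spans under 5000 bases had a median of 0.51, against −0.05 for 1662 symbols of at least 100000 bases. At an unadjusted p under 0.05, 98 of the 300 were higher and 2 lower. SST, with a span of 1399 bases, stood at 1.93 in the nuclei chosen without SST, where the 90th percentile of the genes under 5000 bases was 1.18. SCG2, with a span of 5338 bases, stood at 1.83 in these nuclei against a 90th percentile of 0.78 for spans of 5000 to 20000 bases. The part of these library properties in the differences was not tested.

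**Figure D4:**
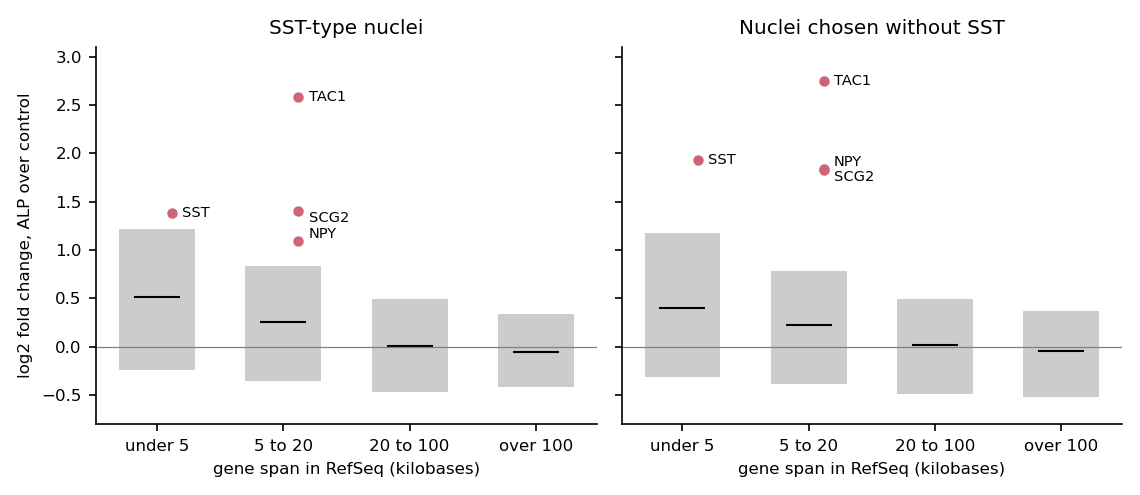
Median (lines) and 10th to 90th percentile (grey bars) of the log2 fold change of ALP over control by RefSeq gene span, with 4 peptide genes as points, in SST-type nuclei and in the nuclei chosen without SST. Symbols with spans under 5 kilobases have a median of 0.51 in SST-type nuclei, and SCG2, NPY and TAC1 lie above the grey bars in both panels. SST was used to choose the nuclei of the first panel, and lies above the bar in the second, where it was not.

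Markers of other cells were low in the members in both groups. Excitatory neuron markers summed to 100 ± 9.54 CPM in control against 102 ± 27.8 CPM in ALP members, most of it CAMK2A, while NRGN was at 0 and NEUROD6 was at 0 by the rule. Of the oligodendrocyte markers, MOG was at 0 by the rule and MBP, MOBP and MAG were also at 0. Astrocyte markers summed to 37.8 ± 13.0 and 63.0 ± 19.5 CPM, led by SLC1A3, with GJA1 at 0 and AQP4 at 0 by the rule. Microglial markers summed to 14.8 ± 7.04 and 7.45 ± 3.61 CPM. Genes on the Y chromosome were transcribed in control 1, control 2 and ALP 2 and were near 0 in the other 3 libraries. With a term for this, 110 features were called in SST-type nuclei, and SST in the nuclei chosen without SST kept its call.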

How the data were processed

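Nuclei were sequenced on the 10x Genomics 3′ platform (v3.1). The authors deposited raw counts of UMIs per feature and barcode, written by Cell Ranger. The methods and the submitters' processing notes name version 3.1.0, and the matrix headers name version 6.1.2. The annotation came from TreeshrewDB with 83605 features, and the build and the use of strand are not given in the sources used here, so that antisense-named features and their partners cannot be told apart. RefSeq names and gene spans were those of TupChi_1.0, and 93.3% of the tested symbols had a span.

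Members and gene lists were chosen with earlier results of these data known. Sums of UMIs per library entered the quasi-likelihood test of edgeR 4.0.16 (R 4.3.3) with TMM factors and a minimum count of 10. Doublets were marked by scrublet in scanpy 1.11.5 (8, 3 and 3 members in control and 5, 4 and 0 in ALP TSs) and kept. DESeq2 1.42.0, upper-quartile scaling, no filter, a replicate block, each library left out, other rules for members, removal of doublets, thinning to 4000 UMIs and a Y-linked term were alternatives. The Y-linked term, thinning and removal of doublets in the nuclei chosen without SST, the removal of NPY-rich nuclei and the DLX rule were added after the data were seen. Named genes were those of the rule, members of the lists, leading genes by ratio (20) or spread (15), and, as fewer than 5 were called, the 8 smallest p outside the rule in each direction with groups that did not overlap. Alternatives were run for 27 of them. Interneurons were found by DLX genes in place of GAD1 and GAD2, which were hardly counted. The test was tried on simulated counts. P-values measure the spread between animals, 1 library each. Shares and detection used exact permutation tests (scipy 1.17.1). Values of some listed genes are not reported here.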

Additional observations from a re-analysis of the deposited data

Results flagged for a closer look

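The ALP effect on TTR, transthyretin, differed between SST-type nuclei and the other interneurons by −5.42 on the log2 scale (edgeR, adjusted p = 0.000107). TTR had 24, 3 and 6 UMIs in control and 13, 2 and 0 UMIs in ALP SST-type nuclei. In the other interneurons it had 77, 9 and 21 UMIs in control and 1365, 3 and 5 UMIs in ALP TSs, and 1333 of the 1365 UMIs of ALP 1 lay in a single nucleus. Without ALP 1 the difference was −0.34 with an adjusted p of 1.00, and against basket-type nuclei, with ALP 3 left out for having 8 of them, it was −0.27. The call was thus lost without ALP 1.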

How the results depend on the processing

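In SST-type nuclei the main test made 0 calls, as did upper-quartile scaling, the study's limits on genes, removal of doublets, a sum of at least 5 UMIs and both other sums at 0. DESeq2 made 97 calls, no filter 475, the replicate block 33, the Y-linked term 110, RefSeq symbols alone 12, thinning 3, SST left out of the rule 2, NPY-rich nuclei left out 3, and leaving out 1 library 0 to 128 (128 without control 1, 29 without control 2). In the nuclei chosen without SST, the 2 calls became 35 with DESeq2, 170 with no filter, 17 with the replicate block, 39 with the Y-linked term, 6 with thinning and 0 to 120 with 1 library left out (120 without control 1, 19 without control 2, 6 without control 3, 1 without ALP 2 and 0 without ALP 1). The log2 fold change of SST there was 1.87 to 2.04 under the other alternatives and 1.79 to 2.04 with 1 library left out, where its call was lost without ALP 1 alone (1.94). That of SCG2 was 1.62 to 1.98 with 1 library left out. The test of the difference between interneuron classes made 1 call, 0 with DESeq2, 21 with no filter, 0 with the replicate block, 12 against basket-type nuclei and 0 to 6 with 1 library left out (6, 3 and 2 without control 1, 2 and 3, and 0 without ALP 1). The difference in the share of SST-type nuclei, −0.69 points, became 3.54 among interneurons, 0.23 under the study's limits, −1.29 among nuclei with at least 4000 UMIs and −1.22 to 0.31 with 1 library left out (0.31 without control 2). The causes were not tested. Alternatives were run for 27 of the named genes, the 16 of smallest p and 11 list members picked with their values known. Of these 0 changed sign, and 96 of 496 comparisons passed the threshold. Under the study's limits NCAPD2 moved from 1.11 to 0.55, CRH from 2.22 to 1.19, CRHBP from 1.07 to 0.66, PCSK1N from 1.36 to 0.73, HSPA5 from 1.05 to 0.46 and NPY from 1.10 to 2.03. Without SST in the rule SCG3 moved from 0.69 to 0.36 and SLC25A26 from −0.83 to −0.51, GRIN2A moved from 0.42 to 0.23 with both other sums at 0, and HSPA5 was 1.60 without control 2. The other list members were not recomputed. Control and ALP libraries of the same number did not deviate together (correlations of −0.015, 0.029 and −0.05), so the block rests on a number alone. ALP 3 had the fewest summed UMIs, with 270909 in 43 nuclei, and genes such as PNOC or SSTR2 were too sparse to test.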
